A study of Mus musculus with 43 samples.

Results

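CD4 T cells that had been kept under an intermediate dose of their antigen for 10 days were compared with naive CD4 T cells bearing the same receptor. The comparison used 9 of the 43 arrays of the series, the 4 labelled as day 10 intermediate (int) and the 5 labelled naive, and the arrays were chosen by these labels alone. Every gene with a usable probe set was tested, 22180 in all, with no filter on low values. The T cells of all groups came from AND TCR transgenic CD45.1+ Rag2o/o donors. Their receptor recognises a peptide of moth cytochrome c (MCC) on MHC class II, and for want of Rag2 they can rearrange no receptor of their own. Cells of the int group went into iMCC recipients, whose pair of transgenes lets doxycycline switch on an invariant chain carrying the MCC epitope in dendritic cells. These mice had received an anti-CD40 antibody, which activates dendritic cells, and drank 100 µg/ml doxycycline from before the transfer until the sort on day 10. Naive cells were sorted on day 3 after transfer into non-transgenic recipients without doxycycline. Priming, antigen on day 10, time after transfer, day of the sort, recipient genotype and drug therefore cannot be told apart between int and naive cells. The labels also do not say whether the recipients of naive cells had the antibody.

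A pair of further day 10 groups served to place the int levels. The none group (5 arrays) was primed in the same iMCC recipients at 100 µg/ml and had 0 µg/ml from day 3 on. The high group (4 arrays) came from cMCC recipients, whose MHC class II positive cells carry the epitope construct constitutively, with no doxycycline. Cells were sorted as CD4+CD90.2+CD45.1+ and mixed, and on day 10 the sort was repeated. Whether each array stands for another mouse is not stated in the labels, so p-values here reflect how far these samples differ, and some of that may be technical.

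A naive CD4 T cell that meets its peptide on an activated dendritic cell divides and becomes an effector cell, and T-bet, encoded by Tbx21, directs it to the Th1 fate with interferon gamma as its product. When antigen persists, as in chronic infection or for a self antigen, T cells carry inhibitory receptors such as LAG-3, TIGIT and PD-1. They may also make IL-10 or IL-21, cytokines of Tr1 and follicular helper (Tfh) cells, and the transcription factor c-Maf drives both. Receptor signalling itself is followed through genes such as Nr4a1, Egr2 and Irf4, which it induces within hours.

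All values are the deposited signals on the log2 scale, a difference of 1 is a 2-fold change, and array medians of the int and naive groups lay between 3.29 and 3.44, so that values near 3 are close to the bottom of the scale and folds against them may be too small. Transcripts of the sort markers were present on all 9 arrays, with Cd4 at 9.14 to 9.99, Thy1 (CD90) at 10.63 to 11.13 and Ptprc (CD45) at 10.90 to 11.42, while Rag2 lay at 2.52 to 3.21. None of these 4 was called between the groups. Markers of other cell types were uneven among the naive arrays. The mean of 15 measured B and plasma cell markers was 3.71, 3.60, 5.25, 4.46 and 3.95 on naive arrays 1 to 5, against 3.54 to 3.72 on the int arrays. That of 27 myeloid and dendritic cell markers was 3.71, 3.48, 4.90, 4.48 and 4.04 against 3.42 to 3.69. In summed linear signal the B cell list ran from 748 to 1970 on naive and from 683 to 960 on int arrays, and the myeloid list from 994 to 5011 and from 890 to 1138.

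**Figure D1:**
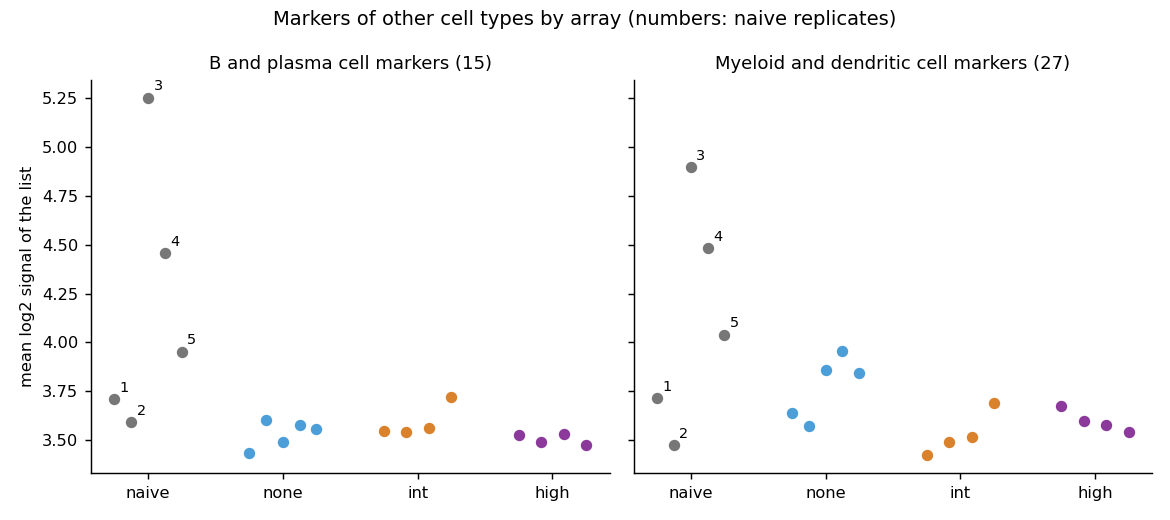
Mean log2 signal of the measured B and plasma cell markers (left, 15 genes) and myeloid and dendritic cell markers (right, 27 genes) on each array of the naive, none, int and high groups, with 1 point per array and naive replicates numbered. Naive replicates 3 and 4 stand at 5.25 and 4.46 for B cell and 4.90 and 4.48 for myeloid markers, above every int array.

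Naive replicates 3 and 4 thus carried transcripts of B and myeloid cells, and naive 5 a smaller amount. Cd79b, part of the B cell receptor, read 8.69 and 6.66 on naive 3 and 4 and 3.31, 3.37 and 5.35 on naive 1, 2 and 5. Lyz2, the lysozyme of macrophages and neutrophils, read 8.34 and 7.39 there and 2.61, 2.65 and 3.47 on the other three. S100a8, a neutrophil calcium-binding protein, read 10.70 and 10.18 against 6.39, 5.11 and 7.72. Pax5, Itgam and Adgre1, which define B cells, myeloid cells and macrophages, stayed at 2.51 to 3.98 on all naive arrays. Over all genes 1.01% were called lower in int, and 0.645% without naive 3 and 4. Among the B cell markers 4 of 15 were called lower (Cd79a, Cd79b, H2-Aa and H2-Ab1) and 1 higher (Cd22, described below). Among the myeloid markers 5 of 27 were called lower (S100a8, S100a9, Ngp, Camp and Fcer1g). Without naive 3 and 4 the lower counts were 2 (Cd79a and H2-Ab1) and 0. The calls of Cd79b (adjusted p = 0.108), H2-Aa (0.579) and all 5 myeloid markers (0.116 to 0.73) were then lost. The myeloid count was 8 without naive 2, 1 without naive 3, 2 without naive 4 or int 3, and 3 without int 2. The H2-Aa and S100a9 calls were lost without naive 3 or naive 4, and those of S100a8, Camp and Fcer1g without naive 3 or several other single arrays (adjusted p up to 0.195). H2-Ea and Cd24a, among the 12 largest falls, were likewise highest on naive 3 and 4. H2-Ea read 7.59 on naive 3 and at most 4.33 on naive 1, 2 and 5, and Cd24a 8.17 and 7.86 on naive 3 and 4 and at most 5.56 on the others. Cd24a was not called without them (adjusted p = 0.63), nor without naive 3, naive 4, int 1, int 2 or int 4 alone (up to 0.143), while H2-Ea was (adjusted p = 0.00719). Each result below was therefore also computed without naive 3 and 4. Unless a sentence says otherwise, a named call held without them and on leaving out each of the 9 arrays in turn.

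In all, 698 of the 22180 genes (3.15%) were called at an adjusted p under 0.05 by limma, 474 higher (2.14%) and 224 lower (1.01%) in int cells. A change of at least 2-fold was seen for 213 of the higher and 120 of the lower genes. Every int array lay above every naive array for 784 genes (3.53%), 407 of them called, and below for 477 (2.15%), 172 of them called. Without naive 3 and 4 the test called 411 genes (1.85%), 268 higher (1.21%) and 143 lower (0.645%), and 373 of the 698 were among them, none with a changed sign. On leaving out each array in turn 364 of the 698 kept their call throughout. The split of higher and lower calls was 353 and 267 after quantile normalization, against 474 and 224 on the deposited scale. The median change over all genes was -0.02.

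**Figure D2:**
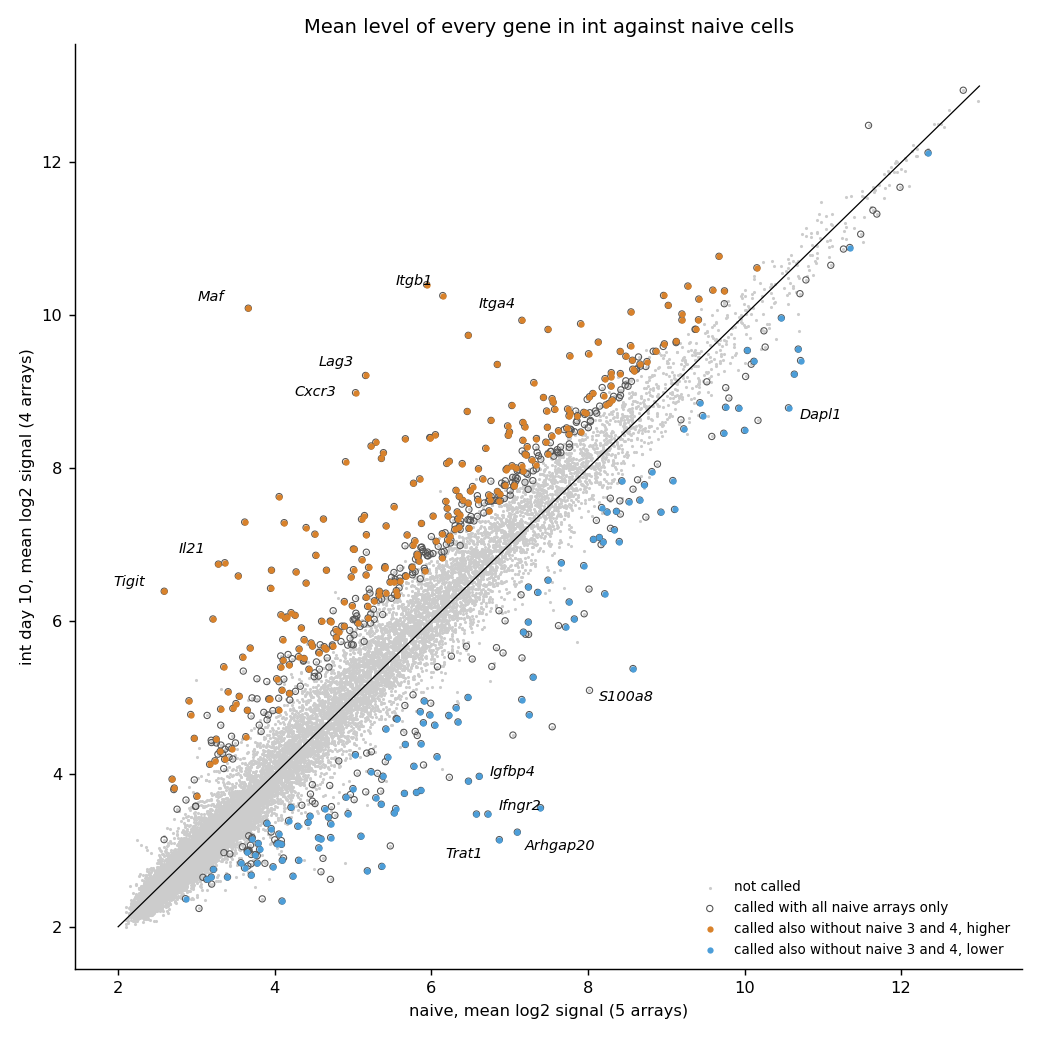
Mean log2 signal of each of 22180 genes in naive cells (x axis, 5 arrays) and in int cells of day 10 (y axis, 4 arrays). Orange and blue points are the 250 higher and 123 lower genes called both with all naive arrays and without naive replicates 3 and 4, open circles the 325 called only with all of them, and the line marks equal levels. Maf stands farthest above the line (10.09 against 3.66) and Arhgap20 farthest below it (3.24 against 7.10).

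The transcription factors c-Maf and T-bet were among the genes with the clearest rise. Maf read 9.81, 10.32, 10.54 and 9.70 on int arrays 1 to 4 and 3.85, 3.03, 3.29, 3.19 and 4.95 on naive arrays 1 to 5. It lay near the bottom of the scale on most naive arrays, did not overlap between the groups, and was 86.3-fold higher (log2 6.43 ± 0.49 SE, adjusted p = 2.72e-13). A dimmer probe set of the same gene showed 7.22 against 3.43. Tbx21 read 6.94, 7.41, 7.08 and 7.46 in int and 4.16, 4.97, 4.57, 4.12 and 4.18 in naive cells, again without overlap (log2 2.82 ± 0.25, adjusted p = 2.41e-11). In none cells Maf stood at 8.81 ± 0.55 (SD, n = 5), with every int array above every none array, but the difference of 1.28 ± 0.49 SE was not called (adjusted p = 0.303). Tbx21 stood at 6.98 ± 0.20 in none cells and overlapped with int (adjusted p = 0.934). No difference from the high group was called for either factor.

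Eomes, a T-box factor related to T-bet, behaved otherwise. It read 6.25, 5.63, 7.90 and 7.82 on the int arrays and 3.89, 4.33, 5.30, 5.75 and 6.58 on the naive ones, so the groups overlapped. Its call against naive cells (log2 1.73 ± 0.51, adjusted p = 0.0448) was lost on leaving out int 3, int 4, naive 1, naive 2 or naive 3, with an adjusted p of up to 0.238, and without naive 3 and 4 (0.0747). Against none cells, at 3.75 ± 0.27, the difference was 3.15 ± 0.51 SE (adjusted p = 8.30e-05), and the high group, at 4.02 ± 0.26, lay 2.88 below int (adjusted p = 0.000378). Of 17 measured exhaustion-associated factors 6 were called higher and 0 lower (35.3% called, all genes 3.15%). The count of 6 fell to 2 without naive 3 and 4, 2 without int 4 and 3 without int 3. Bhlhe40, a regulator of cytokine production, was another of these, at 4.11, 5.58, 6.13 and 6.35 against 3.42 to 4.49 in naive cells. Its call was lost without int 3, int 4 or naive 4 (adjusted p up to 0.14) and without naive 3 and 4 (0.105). Tox, the factor that maintains exhausted CD8 T cells, was not called (8.32 to 8.77 against 8.02 to 8.42, adjusted p = 0.577), and neither was Prdm1, which encodes Blimp-1 (3.66 to 4.04 against 3.67 to 3.93, adjusted p = 0.939).

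Of 26 measured Th1 genes 13 were higher and 0 lower (50% called, all genes 3.15%). Their median change was 1.15 against -0.02 over all genes. Without naive 3 and 4 the counts were 11 and 0. Cxcr3, the chemokine receptor that takes Th1 cells into inflamed tissue, read 9.03, 9.04, 8.71 and 9.17 in int and 4.65, 5.17, 5.70, 5.20 and 4.44 in naive cells (log2 3.96 ± 0.20, adjusted p = 6.85e-19). The int arrays agreed to within 0.46, and the nearest naive array lay 3.01 below them. Ifng, the Th1 cytokine interferon gamma, read 6.23, 6.66, 6.98 and 7.18 against 3.51, 3.01, 4.05, 2.93 and 3.31 (log2 3.40 ± 0.36, adjusted p = 3.67e-09). Stat4, which carries the IL-12 signal, rose by 1.50 ± 0.15 (adjusted p = 8.06e-10) and Tnf by 1.31 ± 0.27 (adjusted p = 0.00131). Fasl, the death ligand of effector T cells, rose by 1.67 ± 0.34 (adjusted p = 0.00122).

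Ccl5, which effector T cells secrete to attract further leukocytes, read 10.26, 10.97, 10.16 and 10.22 in int and 3.81, 4.05, 9.18, 6.27 and 6.39 in naive cells. All int arrays were high and close together, while the naive values spanned 5.37, with naive 3 nearest to int. The change was 4.46 ± 0.55 (adjusted p = 1.57e-07) with all naive arrays and 5.65 without naive 3 and 4 (adjusted p = 1.86e-12). Whether the B and myeloid transcripts of naive 3 had a part in its Ccl5 level was not tested. Ly6c2, a surface marker of Th1 effector cells, overlapped, with 9.24, 9.33, 7.36 and 7.67 against 6.52, 4.22, 7.95, 6.59 and 4.62 (log2 2.42 ± 0.48, adjusted p = 0.00112).

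Cytotoxic genes formed part of the same profile. Of 20 measured, 6 were higher and 0 lower (30% called, all genes 3.15%), and the counts were the same without naive 3 and 4. Nkg7, a granule membrane protein needed for degranulation, read 9.42, 9.60, 9.76 and 10.17 against 6.28, 4.39, 7.10, 7.34 and 7.25 (log2 3.27 ± 0.29, adjusted p = 2.09e-11). Gzmk, the granzyme of memory-like T cells, read 6.06, 5.62, 6.99 and 7.69 in int and 2.91 to 3.83 in naive cells (log2 3.06 ± 0.41, adjusted p = 9.02e-07). Cst7, an inhibitor of the proteases that activate granzymes, rose by 2.52 ± 0.23 (adjusted p = 8.46e-11). Srgn, the proteoglycan that packs granules, rose by 0.75 ± 0.12 (adjusted p = 1.90e-05). Of 7 markers of NK cells, CD8 T cells and gamma-delta cells Eomes was the only one called. Cd8a lay at 2.70 to 3.49 and Ncr1 at 2.49 to 3.43 on all 9 arrays. The list as a whole was uneven among the naive arrays, however. Its mean was 3.71, 3.70, 4.70, 4.48 and 4.25 on naive 1 to 5, against 3.98 to 4.50 on the int arrays. Whether transcripts of such cells had a part in the naive levels of Nkg7 or Ccl5 was not tested.

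**Figure D3:**
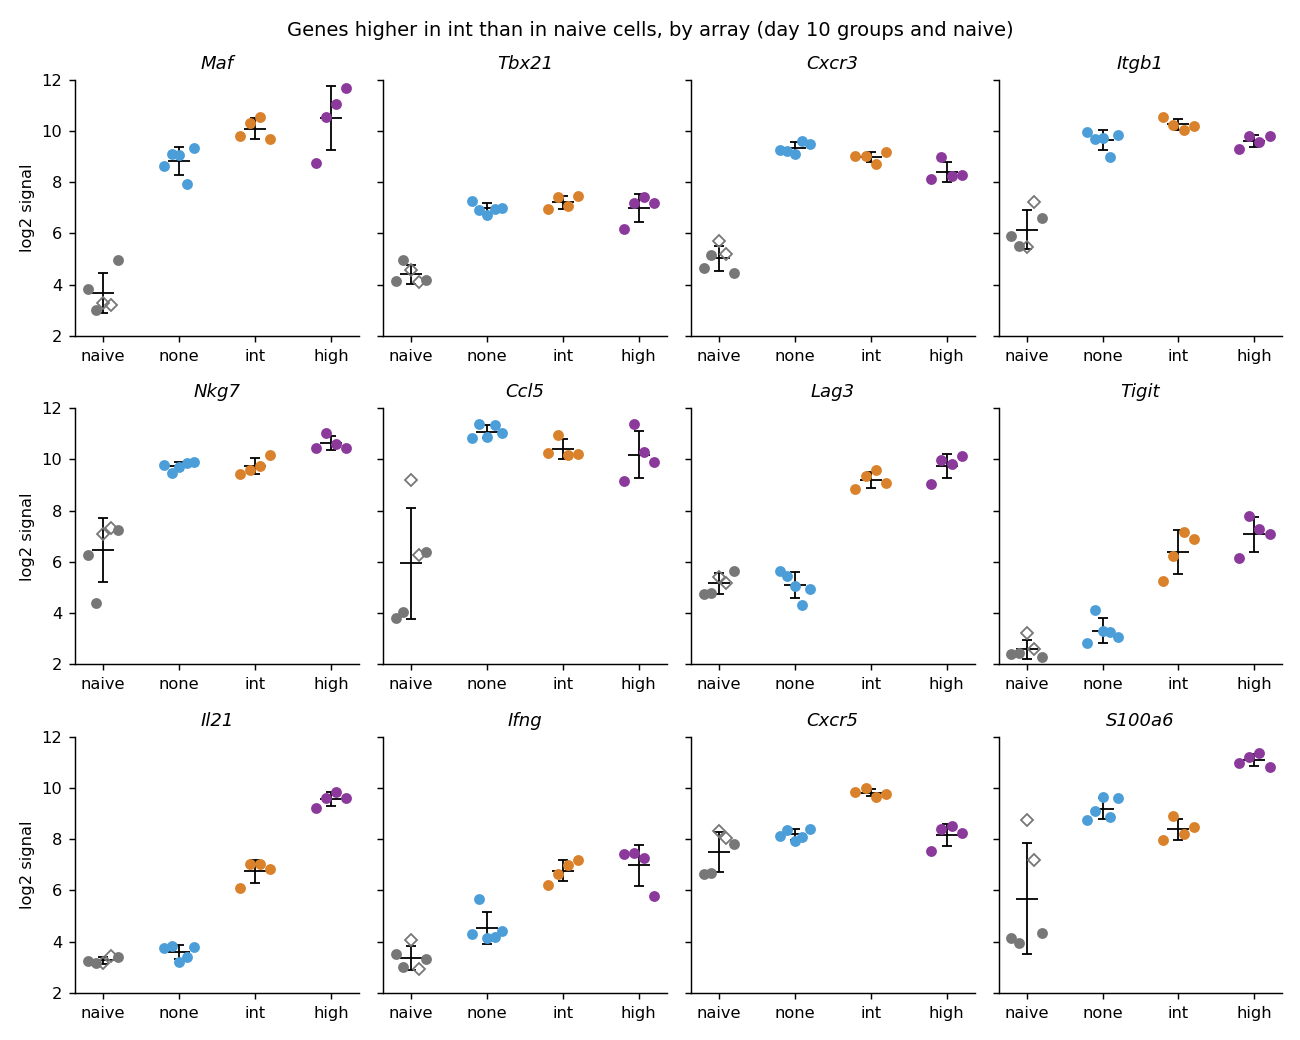
Log2 signal of 12 genes called higher in int than in naive cells, on each array of the naive, none, int and high groups, with the mean and SD of each group in black and naive replicates 3 and 4 as open diamonds. Lag3, Tigit and Il21 stand high in int and high cells, and none cells lie 4.12, 3.07 and 3.16 below int for them, while Maf, Tbx21, Cxcr3, Itgb1, Nkg7 and Ccl5 stand high in all 3 primed groups.

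T-bet and Eomes bind a T-box element whose core is GGTGTGA. The sequences below are shown because 3 of the rising effector genes hold that core in the 250 bases before their start site, and Il21 a core NFAT site (TGGAAAA), the element of the factor that receptor signalling brings into the nucleus. They are RefSeq sequences of GRCm38.p6, given 5′ to 3′ on the strand of the gene, with the match in capitals. The Nkg7 window is chr7:43436888-43437137 on the plus strand and has its match 13 bases before the start site. For Itga4, described below, it is chr2:79255176-79255425 on the plus strand (match at 165 bases), for Gzmk chr13:113180966-113181215 on the minus strand (75 bases) and for Il21 chr3:37232637-37232886 on the minus strand (119 bases).
Nkg7: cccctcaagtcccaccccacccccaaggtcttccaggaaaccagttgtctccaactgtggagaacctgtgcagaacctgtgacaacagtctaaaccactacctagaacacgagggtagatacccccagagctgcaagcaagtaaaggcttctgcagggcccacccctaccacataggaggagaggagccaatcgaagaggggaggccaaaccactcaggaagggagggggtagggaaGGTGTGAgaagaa
Itga4: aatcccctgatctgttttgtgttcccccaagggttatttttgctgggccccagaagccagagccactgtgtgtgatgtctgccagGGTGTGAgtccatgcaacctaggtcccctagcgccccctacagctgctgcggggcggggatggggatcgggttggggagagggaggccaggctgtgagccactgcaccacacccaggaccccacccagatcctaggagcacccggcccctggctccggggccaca
Gzmk: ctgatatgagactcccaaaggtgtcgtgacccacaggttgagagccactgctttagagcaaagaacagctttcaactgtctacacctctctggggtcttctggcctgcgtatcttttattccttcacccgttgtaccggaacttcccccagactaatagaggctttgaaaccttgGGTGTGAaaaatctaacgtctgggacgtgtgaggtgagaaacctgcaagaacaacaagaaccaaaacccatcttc
Il21: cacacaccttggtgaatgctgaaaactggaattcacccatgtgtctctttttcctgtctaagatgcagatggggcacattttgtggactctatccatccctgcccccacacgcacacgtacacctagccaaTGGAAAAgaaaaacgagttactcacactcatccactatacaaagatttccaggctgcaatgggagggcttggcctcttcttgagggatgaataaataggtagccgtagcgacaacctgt

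Searched on both strands, the T-box core stood in 1095 of 32851 windows of the same length (3.33%), and the NFAT core in 1947 (5.93%). Counted by gene, 629 of 16990 measured genes with a window held the T-box core (3.7%), and so did 11 of the 165 called genes that rose at least 2-fold (6.67%) and 2 of the 81 that fell at least 2-fold (2.47%). The NFAT core stood in 1048 of 16990 (6.17%), 8 of 165 (4.85%) and 4 of 81 (4.94%). An AP-1 site (TGANTCA) stood in 1264 (7.44%), 15 (9.09%) and 6 (7.41%). These matches are letters in a window and were not tested as binding sites.

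Adhesion genes were among those that rose. Of 20 integrin and adhesion genes 6 were higher and 0 lower (30% called, all genes 3.15%), or 3 and 0 without naive 3 and 4. Itgb1 and Itga4 encode the chains of VLA-4, the integrin that arrests effector T cells on inflamed vessels. Itgb1 read 10.55, 10.24, 10.03 and 10.21 in int and 5.92, 5.50, 5.48, 7.23 and 6.60 in naive cells (log2 4.11 ± 0.21, adjusted p = 6.85e-19). Itga4 read 10.28, 9.70, 9.92 and 9.84 against 6.88 to 7.47 (log2 2.78 ± 0.16, adjusted p = 6.87e-17). The groups did not overlap for either chain, with 2.80 between the closest Itgb1 arrays and 2.23 between the closest Itga4 arrays. Alcam, the ligand of CD6, read 7.31 to 7.37 against 4.47 to 5.69 (log2 2.22 ± 0.27, adjusted p = 1.41e-07). Nrp1, a semaphorin receptor found on regulatory and some activated T cells, read 7.16, 7.05, 7.31 and 7.66 against 3.03 to 4.10 (log2 3.68 ± 0.27, adjusted p = 6.50e-14).

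Among chemokine and homing receptors 4 of 22 were higher and 3 lower (31.8% called, all genes 3.15%), or 5 and 3 without naive 3 and 4. Cxcr5, which guides cells into B cell follicles, read 9.86, 9.98, 9.65 and 9.77 in int and 6.64, 6.68, 8.30, 8.03 and 7.80 in naive cells. It was uniform among int arrays and 2.33 ± 0.26 higher (adjusted p = 1.23e-08), and 2.77 higher without naive 3 and 4. Cd44, the classical marker of antigen experience, rose by 0.93 ± 0.19 (adjusted p = 0.00187). Ccr8 fell by 2.58 ± 0.30 (adjusted p = 3.40e-08), from 4.33 to 5.99 in naive cells to 2.61 to 2.98. Ccr7, the receptor that keeps naive cells in lymph nodes, was not called (8.35 to 9.38 against 9.19 to 9.76, adjusted p = 0.0963), nor was Cxcr6, a receptor of tissue-homing effector cells (4.53 to 5.44 against 4.90 to 5.59, adjusted p = 0.881).

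Of 19 inhibitory receptors and ligands 4 were higher and 1 lower, with and without naive 3 and 4. That is 26.3% of the list, against 3.15% of all genes, and the median change of the list was 0.08. Lag3, which binds MHC class II, read 8.84, 9.34, 9.57 and 9.10 in int and 4.75, 4.78, 5.42, 5.19 and 5.66 in naive cells. It was 16.6-fold higher (log2 4.05 ± 0.45, adjusted p = 1.04e-08). Tigit, which competes with CD226 for its ligand, read 5.26, 6.24, 7.16 and 6.90 against 2.39, 2.45, 3.21, 2.60 and 2.29 (log2 3.80 ± 0.42, adjusted p = 1.23e-08). Nt5e encodes CD73, the enzyme that makes adenosine, and read 7.09, 7.16, 7.01 and 7.89 against 3.71 to 4.42 (log2 3.17 ± 0.31, adjusted p = 6.70e-10). Ctla4, which takes CD80 and CD86 from dendritic cells, rose less, by 0.96 ± 0.24 (adjusted p = 0.0132). That call was lost without int 1 or naive 2 (adjusted p up to 0.0833). Pdcd1, which encodes PD-1, read 5.98, 5.56, 6.31 and 6.95 in int and 6.12, 5.56, 6.92, 7.34 and 5.90 in naive cells. The int range of Pdcd1 lay within the naive range and no difference was called (log2 -0.17 ± 0.35, adjusted p = 0.931). Cd96, a receptor of the TIGIT family, fell by 0.96 ± 0.19 (adjusted p = 0.00104).

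The genes of regulatory and Tr1 cells split the same way. Of 21 measured, 6 were higher and 3 lower (42.9% called, all genes 3.15%), with and without naive 3 and 4. The rising ones were Maf, Lag3, Nrp1, Nt5e, Ctla4 and Il10, and the falling ones Foxp3, Gpr83 and Ikzf4. Il10 read 4.33, 5.62, 5.60 and 4.28 in int and 2.65 to 3.11 in naive cells (log2 2.05 ± 0.42, adjusted p = 0.00148). Foxp3, the factor that defines regulatory T cells, read 3.24, 3.54, 3.79 and 3.84 against 5.09, 5.22, 6.42, 5.15 and 4.92 (log2 -1.76 ± 0.27, adjusted p = 2.06e-05). Gpr83, a receptor typical of regulatory cells, fell by 1.85 ± 0.25 (adjusted p = 1.35e-06). Ikzf4, which encodes Eos, fell by 1.04 ± 0.25 (adjusted p = 0.0093), a call lost without int 2 (0.0655). Ikzf2, which encodes Helios, was not called, at 8.05 to 8.81 against 8.45 to 9.23 (adjusted p = 0.735). In bulk samples fewer cells of a type and less RNA per cell cannot be told apart, so a low Foxp3 signal can be either.

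Of 32 cytokine and chemokine ligands 9 were higher and 1 lower (31.2% called, all genes 3.15%), with and without naive 3 and 4. Il21, the cytokine by which helper cells sustain B cells and CD8 T cells, read 6.09, 7.04, 7.02 and 6.83 in int cells. In naive cells it stayed at 3.15 to 3.43 (log2 3.46 ± 0.44, adjusted p = 3.15e-07). Cd40lg, the helper ligand that licenses dendritic cells and B cells, fell, from 7.92 to 9.05 in naive cells to 6.92 to 7.45 (log2 -1.14 ± 0.24, adjusted p = 0.00257). Il2, the T cell growth factor, was not called (3.21 to 4.24 against 2.63 to 3.95, adjusted p = 0.555). Of 19 Tfh genes 6 were higher and 2 lower (42.1% called, all genes 3.15%), or 7 and 2 without naive 3 and 4. Besides Maf, Il21 and Cxcr5 these included P2rx7, an ATP-gated channel that limits Tfh cells (log2 1.82 ± 0.26, adjusted p = 3.59e-06), and Slamf6, a marker of Tfh and stem-like T cells (log2 1.10 ± 0.15, adjusted p = 1.35e-06). Bcl6, the factor that defines Tfh cells, read 8.14, 7.83, 8.44 and 8.41 in int and 7.27, 8.37, 7.82, 7.61 and 7.74 in naive cells and was not called (adjusted p = 0.616). Th2 and Th17 genes gave 0 higher and 2 lower of 15 (13.3% called).

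Cytokine receptor transcripts went both ways. Ifngr2, the signalling chain of the interferon gamma receptor, read 3.56, 3.49, 3.49 and 3.36 in int and 7.30, 7.08, 6.57, 6.46 and 6.20 in naive cells. It was 9.49-fold lower (log2 -3.25 ± 0.27, adjusted p = 5.21e-12), close to the bottom of the scale on every int array. Il10ra, the IL-10 receptor, read 8.27, 7.74, 8.27 and 8.23 against 4.00 to 6.13 (log2 2.77 ± 0.30, adjusted p = 1.06e-08). Il2rb, the chain shared by the IL-2 and IL-15 receptors, rose by 1.98 ± 0.15 (adjusted p = 7.04e-13). Il4ra fell by 0.95 ± 0.22 (adjusted p = 0.00563). Il7r, the survival receptor of resting T cells, read 7.58, 6.85, 5.97 and 4.59 in int and 8.34, 8.65, 7.13, 6.75 and 6.72 in naive cells and was not called (log2 -1.27 ± 0.44, adjusted p = 0.124). Of 22 cytokine receptors in all 4 were higher and 3 lower (31.8% called, all genes 3.15%), and 2 and 3 without naive 3 and 4. The 4 became 2 without int 1 or int 4.

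Genes induced by receptor signalling went both ways. Of 29 measured, 7 were higher and 5 lower (41.4% called, all genes 3.15%), or 5 and 3 without naive 3 and 4. The count of 5 became 3 without int 4 or naive 4. Irf4, a factor that scales with the strength of the receptor signal, read 6.81, 6.83, 7.14 and 6.99 in int and 4.67 to 5.21 in naive cells (log2 1.94 ± 0.30, adjusted p = 2.54e-05). Irf8 read 7.55, 7.74, 8.91 and 8.16 against 5.55 to 6.53 (log2 1.86 ± 0.31, adjusted p = 8.52e-05). Nfatc1, itself a target of NFAT, rose by 1.37 ± 0.22 (adjusted p = 4.55e-05). Rgs1, a brake on chemokine receptors, rose by 2.00 ± 0.31 (adjusted p = 2.45e-05), and the costimulator Icos by 0.84 ± 0.16 (adjusted p = 0.000399).

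Myc, the factor of cell growth, fell. It read 5.96, 6.03, 6.32 and 5.38 in int and 7.53 to 8.01 in naive cells (log2 -1.79 ± 0.27, adjusted p = 1.10e-05). Gpr65, a proton-sensing receptor, fell by 1.51 ± 0.21 (adjusted p = 3.46e-06). The anergy factor Egr2 read 7.56, 7.73, 8.15 and 7.88 against 6.49 to 7.19 (log2 1.07 ± 0.31, adjusted p = 0.041). Its call was lost without any single array but naive 5 (adjusted p up to 0.16) and without naive 3 and 4 (0.205). Tnfrsf9, the costimulatory receptor 4-1BB, read 5.73, 6.64, 6.82 and 6.48 against 7.45 to 8.45 (log2 -1.60 ± 0.44, adjusted p = 0.028). The Tnfrsf9 call was lost without int 1, int 4, naive 4 or naive 5 (adjusted p up to 0.146) and without naive 3 and 4 (0.15).

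Nr4a1, an immediate early gene of receptor signalling, stood at 8.24, 7.86, 9.06 and 8.24 in int and 8.15, 8.75, 8.17, 8.52 and 8.70 in naive cells (log2 -0.11 ± 0.29, adjusted p = 0.953). The none group lay at 5.56 ± 0.48, 2.79 below int (adjusted p = 6.43e-08). Ikzf2, Bcl6 and Tox were also lower in none cells, at 5.72 ± 0.62, 5.75 ± 0.45 and 7.48 ± 0.23. These lay 2.77 (adjusted p = 1.63e-05), 2.46 (adjusted p = 2.54e-07) and 1.08 (adjusted p = 0.00196) below int. For Il7r none cells stood at 10.25 ± 0.33, 4.00 above int (adjusted p = 6.73e-08). Tnfsf4, which encodes OX40 ligand, read 7.24, 6.92, 8.29 and 8.36 in int and 5.34, 4.88, 6.77, 8.27 and 5.28 in naive cells. The Tnfsf4 difference from naive cells was not called with all naive arrays (log2 1.59 ± 0.54, adjusted p = 0.106) and was called without naive 3 and 4 (log2 2.54, adjusted p = 0.0027). Its none level was 2.79 ± 0.22, and the high group stood at 3.51 ± 0.52. Genes of the AP-1 and heat-shock list, which respond to handling as well as to activation, gave 0 higher and 0 lower of 18. With 3.15% of all genes called, a list of 18 may well hold none, so this count cannot be told from that share.

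**Figure D4:**
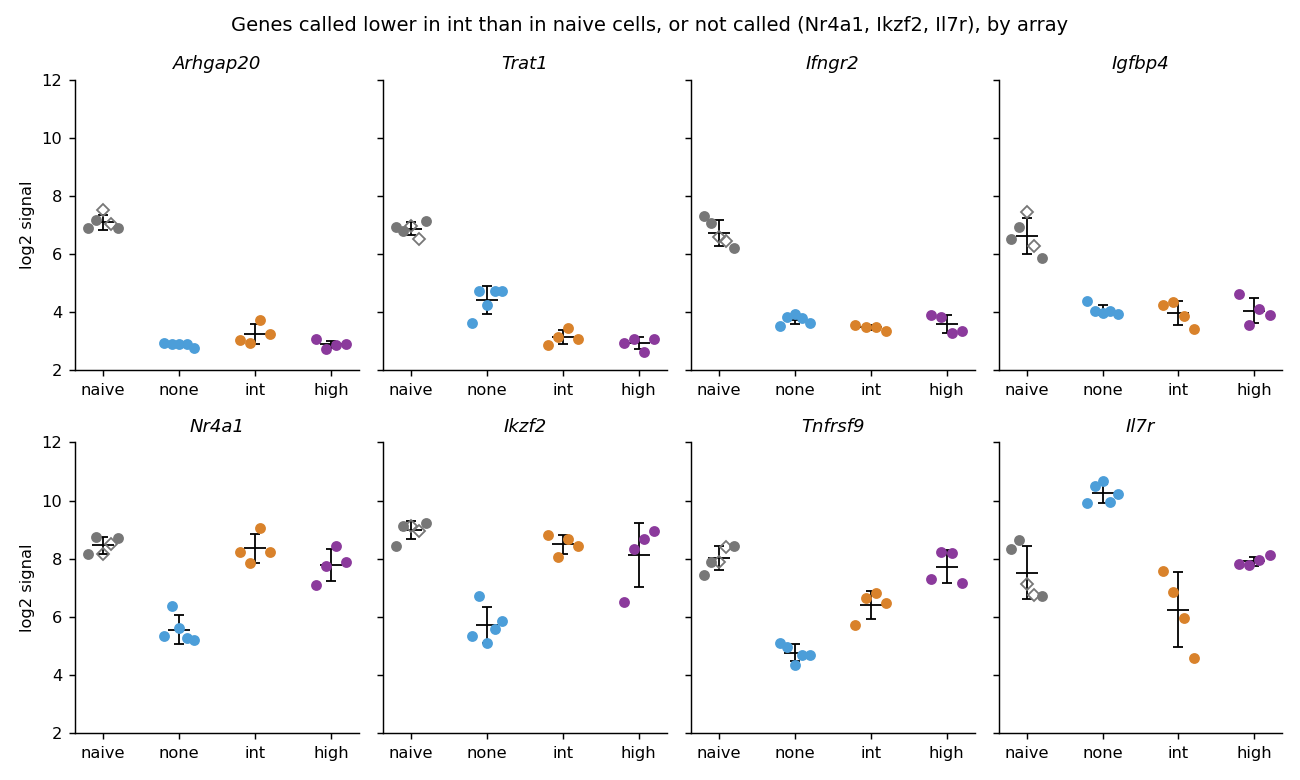
Log2 signal of 8 genes on each array of the naive, none, int and high groups, with the mean and SD of each group in black and naive replicates 3 and 4 as open diamonds. Arhgap20, Trat1, Ifngr2 and Igfbp4 were lower in int cells, while Nr4a1 and Ikzf2 were not called between int and naive cells and stood lowest in none cells, at 5.56 and 5.72.

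Genes of resting naive cells fell in part. Of 27 naive and central memory genes 7 were lower and 2 higher (33.3% called, all genes 3.15%), or 6 and 1 without naive 3 and 4. Igfbp4, a binding protein of insulin-like growth factors that marks naive T cells, read 4.25, 4.34, 3.87 and 3.41 against 6.52, 6.94, 7.46, 6.29 and 5.85 (log2 -2.64 ± 0.22, adjusted p = 5.28e-12). Atp1b1, a subunit of the sodium pump, fell by 2.48 ± 0.25 (adjusted p = 1.88e-09). Treml2 fell by 2.18 ± 0.29 (adjusted p = 6.42e-07). Dapl1 read 9.31, 8.31, 8.60 and 8.94 against 10.19 to 10.81 and remained well above the bottom of the scale (log2 -1.77 ± 0.19, adjusted p = 6.41e-09). Satb1, a chromatin organiser of T cells, fell by 1.36 ± 0.26 (adjusted p = 0.00051). Lef1 and Klf2, factors of naive cells, were not called (adjusted p = 0.32 and 0.386). Lef1 stood at 9.08 to 9.69 against 9.46 to 10.23 and Klf2 at 5.86 to 6.48 against 5.44 to 5.97.

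The largest falls lay outside that list. Arhgap20, a GTPase-activating protein, read 3.05, 2.94, 3.72 and 3.24 in int and 6.88, 7.18, 7.51, 7.03 and 6.89 in naive cells. It was 14.5-fold lower (log2 -3.86 ± 0.13) and had the smallest p of all genes (adjusted p = 1.48e-25). Trat1, an adaptor of the T cell receptor complex, read 2.87, 3.16, 3.44 and 3.09 against 6.93, 6.79, 6.98, 6.52 and 7.12 (log2 -3.73 ± 0.25, adjusted p = 9.90e-15). Tmem108 read 4.44, 2.64, 3.71 and 3.11 against 6.10 to 6.89 (log2 -3.10 ± 0.32, adjusted p = 2.54e-09), though its other probe set, dim in both groups, showed 3.05 against 3.24. Arhgap20 lay at 2.88 ± 0.07 in none and 2.89 ± 0.13 in high cells, so all primed groups were at the bottom of the scale. Trat1 stood higher in none cells, at 4.41 ± 0.48 (int minus none -1.27, adjusted p = 0.00227). Of 11 T cell identity genes 0 were called higher and 1 lower (9.09% called, all genes 3.15%). That gene was Cd2, lower by 0.42 ± 0.10 (adjusted p = 0.00419), and without naive 3 and 4 the lower count was 0.

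Genes linked to memory cells gave 9 higher and 2 lower of 21 S100, annexin, galectin and Ly6 genes (52.4% called, all genes 3.15%). Without naive 3 and 4 the counts were 10 and 1. S100a6, a calcium-binding protein of activated and memory cells, read 7.95, 8.89, 8.21 and 8.49 in int and 4.15, 3.96, 8.74, 7.17 and 4.32 in naive cells. Naive 3 lay within the int range, and the change was 2.72 ± 0.51 (adjusted p = 0.000516) with all naive arrays and 4.24 without naive 3 and 4 (adjusted p = 1.74e-13). Ahnak, a large scaffold protein, read 6.46 to 6.81 against 3.50 to 4.78 (log2 2.37 ± 0.27, adjusted p = 1.92e-08). Ctla2a, a cysteine protease inhibitor, read 8.39, 7.89, 8.15 and 8.38 against 4.24, 2.81, 6.21, 7.77 and 5.91 (log2 2.81 ± 0.48, adjusted p = 0.000111; 3.88 without naive 3 and 4). Vim, the intermediate filament vimentin, went the other way, by -1.00 ± 0.20 (adjusted p = 0.00112). Of 8 GIMAP genes, which encode GTPases of lymphocyte survival, 4 were higher and 0 lower (50% called), or 3 and 0 after quantile normalization. The leading one was Gimap7, at 8.44 to 8.67 against 6.24 to 7.73 (log2 1.58 ± 0.18, adjusted p = 1.32e-08).

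**Figure D5:**
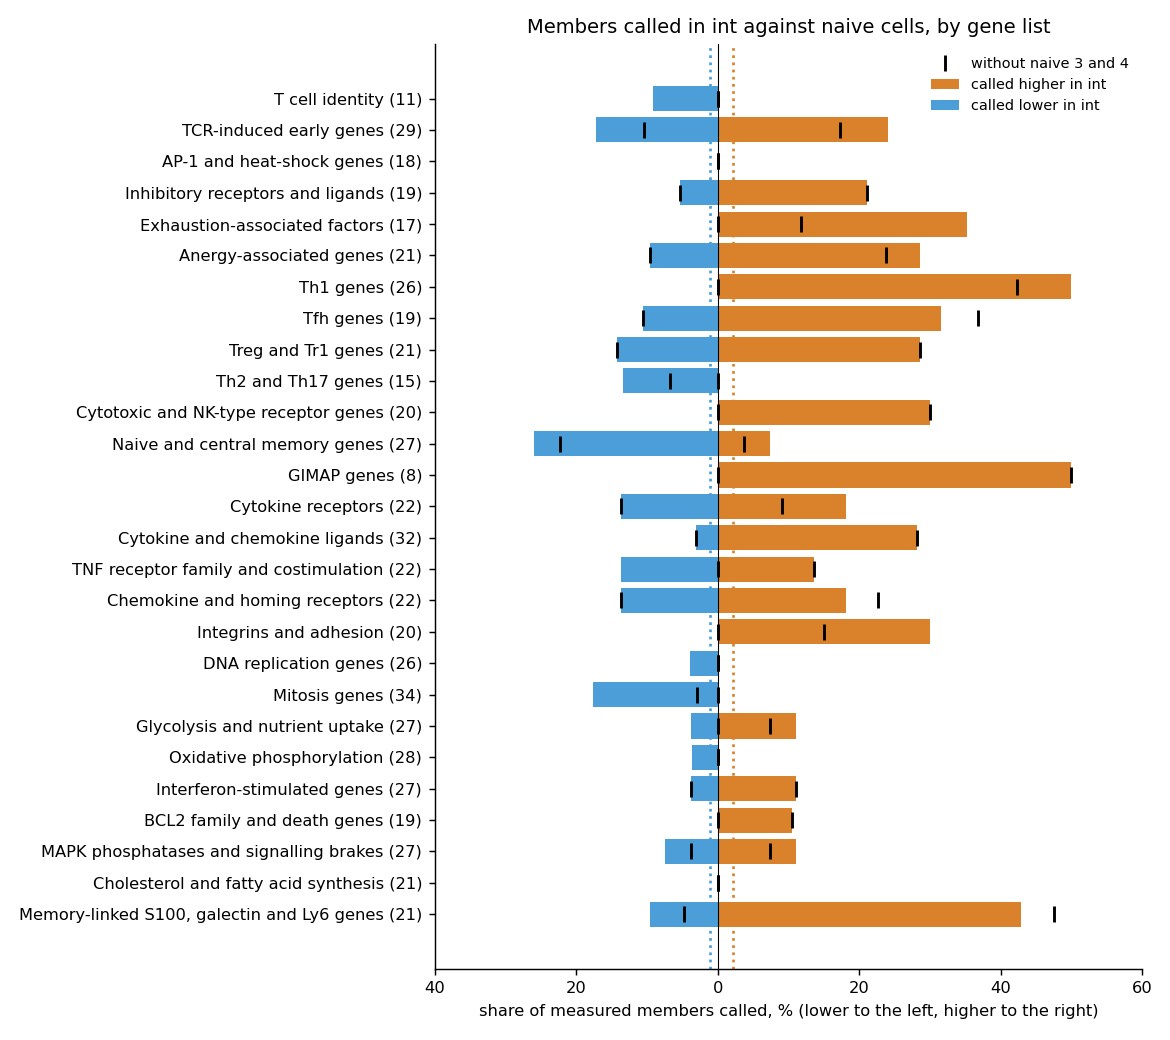
Share of measured members called higher (right, orange) and lower (left, blue) in int than in naive cells for 27 gene lists, with the number measured in brackets. Dotted lines mark the shares over all genes (2.14% higher and 1.01% lower), and black ticks the shares without naive replicates 3 and 4. The Th1 list reaches 13 of 26, while AP-1 and heat-shock genes and cholesterol synthesis genes have no member called.

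No mitosis or replication gene was called higher in int than in naive cells. Of all genes 2.14% were, a share at which lists of this size may hold few or none. Called lower were 1.01% of all genes, and 0.645% without naive 3 and 4. Of 34 mitosis genes 0 were higher and 6 lower, and without naive 3 and 4 the lower count was 1. Ccna2, the cyclin of S phase and mitotic entry, was that gene, at 2.89, 3.16, 3.05 and 3.50 in int and 4.22, 4.08, 4.17, 5.39 and 5.09 in naive cells (log2 -1.44 ± 0.27, adjusted p = 0.000428). Ccnb2, a mitotic cyclin, fell by 1.40 ± 0.29 (adjusted p = 0.00213), but by 0.78 without naive 3 and 4 (0.192), which read 6.12 and 6.05 while the other naive arrays read 4.33 to 4.72. Top2a, the topoisomerase of dividing cells, read 5.05, 5.44, 5.05 and 5.76 against 4.69, 5.00, 5.52, 5.70 and 5.67 (adjusted p = 0.997), and none cells stood at 4.23 ± 0.24, 1.09 below int (adjusted p = 0.00135). Mki67, which encodes Ki-67, read 4.11, 4.28, 4.58 and 5.63 against 4.20 to 6.23 and was not called (adjusted p = 0.447). DNA replication genes gave 0 higher and 1 lower of 26, which at 3.85% is near the 3.15% called over all genes.

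For metabolic, interferon and death genes the counts are set beside the 3.15% called over all genes, and differences between lists were not tested. Glycolysis and nutrient uptake genes gave 3 higher and 1 lower of 27 (14.8%), or 2 and 0 without naive 3 and 4. Hif1a, the hypoxia factor that also follows receptor signalling, read 9.04 to 9.21 in int and 6.83 to 7.73 in naive cells (log2 1.81 ± 0.15, adjusted p = 2.64e-12). Pfkp, a phosphofructokinase of glycolysis, rose by 1.07 ± 0.16 (adjusted p = 1.06e-05). Oxidative phosphorylation genes gave 0 and 1 of 28 (3.57%), and cholesterol and fatty acid synthesis genes 0 and 0 of 21. Neither count can be told from the share over all genes. Of 27 interferon-stimulated genes 3 were higher and 1 lower (14.8%), led by Iigp1, a GTPase induced by interferon gamma, at 8.34 to 8.84 against 6.13 to 7.51 (log2 1.86 ± 0.24, adjusted p = 5.11e-07). Casp1, the inflammasome protease, rose by 1.97 ± 0.22 (adjusted p = 1.83e-08), and with Fasl made up the 2 of 19 BCL2 family and death genes that were higher (10.5%). Among 21 anergy-associated genes 6 were higher and 2 lower, or 5 and 2 without naive 3 and 4. Cblb, an E3 ligase that restrains receptor signalling, read 10.08 to 10.35 against 8.72 to 9.23 (log2 1.29 ± 0.13, adjusted p = 2.32e-09), and Ndrg1, an anergy factor, fell by 1.55 ± 0.21 (adjusted p = 1.07e-06). Of 27 MAPK phosphatases and signalling brakes 3 were higher and 2 lower. Of 22 TNF receptor family and costimulatory genes 3 were higher and 3 lower, or 3 and 0 without naive 3 and 4, and 1 lower without int 1. Slamf1 rose by 1.40 ± 0.30 (adjusted p = 0.0031).

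Among the 12 largest rises were also Gpm6b, a membrane glycoprotein better known from neurons, and Atxn1, the ataxin-1 gene. Gpm6b read 7.89, 7.46, 7.11 and 8.05 in int and 3.62 to 4.51 in naive cells (log2 3.57 ± 0.39, adjusted p = 6.86e-09). Atxn1 read 8.01, 8.00, 8.71 and 7.62 against 4.49 to 5.12 (log2 3.18 ± 0.23, adjusted p = 1.39e-13). Both lay far apart between the groups, by at least 2.60 and 2.50 on the closest arrays.

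The difference between int and none cells tests where antigen between day 3 and day 10, or the drug that induces it, set the int profile apart from that of briefly primed cells at the same time and in the same recipient strain. Over all genes 276 were called (1.24%), 174 higher (0.784%) and 102 lower (0.46%) in int. Without int 3 there were 171 calls and without int 4 there were 170. Some none arrays also read high for neutrophil genes. S100a8 stood at 5.31, 3.60, 8.16, 8.27 and 7.57 on none arrays 1 to 5, and at 4.48 to 6.30 in int. The myeloid marker mean was 3.574 to 3.956 on none and 3.425 to 3.693 on int arrays, and 0 of its 27 members were called between these groups. Comparisons of int and of none with naive cells share the naive arrays, and so their values stand side by side here. For Lag3 the change against naive was 4.05 in int and -0.07 in none cells, and the difference of 4.12 was called (adjusted p = 6.43e-08). For Il21 the values were 3.46 and 0.31 (difference 3.16, adjusted p = 6.90e-06), for Tigit 3.80 and 0.73 (3.07, adjusted p = 5.48e-06) and for Gpm6b 3.57 and 0.67 (2.90, adjusted p = 2.89e-06). Irf4 was 1.94 above naive cells in int and 0.88 below them in none cells (difference 2.82, adjusted p = 6.43e-08). Ifng rose by 3.40 in int and 1.18 in none cells (difference 2.22, adjusted p = 8.73e-05), Il10 by 2.05 and -0.29 (2.35, adjusted p = 0.000516) and Cxcr5 by 2.33 and 0.70 (1.63, adjusted p = 6.86e-05). By contrast Cxcr3 stood 3.96 and 4.31 above naive cells, Itgb1 4.11 and 3.50, Itga4 2.78 and 2.61 and Nkg7 3.27 and 3.27, and no difference between int and none was called for these 4 (adjusted p = 0.213 to 0.999).

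By list, 12 of 29 receptor-induced genes were higher in int than in none and 2 lower, 6 of 19 inhibitory receptors higher and 1 lower, and 8 of 21 Treg and Tr1 genes higher and 0 lower. Th1 genes gave 3 higher and 4 lower of 26. The shares over all genes were 0.784% higher and 0.46% lower. Lowest relative to none among the genes called against naive cells were Slc16a5, a monocarboxylate transporter family gene (-2.57, adjusted p = 5.60e-05), and Oas2, an interferon-stimulated antiviral enzyme (-2.35, adjusted p = 2.58e-06). Also lower than in none cells were Pdlim1, a cytoskeletal adaptor (-1.97, adjusted p = 0.000172), and Gpr183, the oxysterol receptor that positions T cells (-1.55, adjusted p = 8.92e-06). Against naive cells Pdlim1 fell by 1.86 ± 0.33 (adjusted p = 0.00021). The other calls against naive cells were less firm. That of Slc16a5 (log2 -1.47, adjusted p = 0.0289) was lost without int 1, 2 or 3 or naive 1, 2 or 5 (up to 0.124), and that of Oas2 (-1.19, adjusted p = 0.0189) without int 2 or 4 or naive 2 or 5 (up to 0.0996). That of Gpr183 (-0.93, adjusted p = 0.00713) was lost without int 1 (0.0712). Myo1f, an unconventional myosin, lay below none cells (-2.18, adjusted p = 7.67e-05) and above naive cells (1.22, adjusted p = 0.0389), the latter lost without any single array but int 3 or naive 3 (up to 0.228) and without naive 3 and 4 (0.0729). Ly6c2 lay -2.27 from none cells (adjusted p = 0.00504, and up to 0.0648 with 1 array left out).

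The high group differs from int in recipient strain, in the cells that present the epitope and in having had no doxycycline, and these cannot be told apart. The labels also leave unsaid whether cMCC recipients had the anti-CD40 antibody. Between high and int cells 664 genes were called (2.99%), 311 higher (1.4%) and 353 lower (1.59%) in high. Lag3, Tigit, Ifng and Maf, all far above naive cells in int, did not differ in a called way (adjusted p = 0.718, 0.569, 0.895 and 0.827). Il21 rose further, from 6.75 ± 0.45 (SD, n = 4) in int to 9.57 ± 0.26 in high cells (log2 2.83, adjusted p = 5.41e-05). S100a6 was 2.70 higher in high cells (adjusted p = 0.0012), and Pdcd1, at 8.04 ± 0.46, was 1.83 higher (adjusted p = 0.00117). Lower in high than in int cells were Ctla2a (log2 -5.33, adjusted p = 3.70e-10) and Gzmk (log2 -2.86, adjusted p = 1.24e-05). Adam19, a metalloproteinase, was also lower (log2 -2.49, adjusted p = 4.15e-07), and so was Cxcr5 (log2 -1.65, adjusted p = 6.25e-05). Adam19 had risen over naive cells in int (8.35, 7.74, 8.91 and 8.60 against 5.34 to 6.80, log2 2.41 ± 0.30, adjusted p = 1.79e-07). The largest rise in high over int cells was that of Stfa3, a stefin protease inhibitor (7.05, adjusted p = 4.48e-15), which in int cells was below naive cells (-1.75, adjusted p = 0.0113, lost without naive 3 or naive 5, up to 0.0775). Sccpdh rose by 1.24 ± 0.25 over naive cells in int (adjusted p = 0.00151) and by a further 3.12 in high cells (adjusted p = 2.47e-11). Anxa2, an annexin, was 2.68 higher in high than in int cells (adjusted p = 5.81e-08), and the tetraspanin Cd81 2.58 higher (adjusted p = 1.03e-06). Against naive cells Anxa2 was higher in int (1.14, adjusted p = 0.0174, lost without int 4, naive 1 or naive 2, up to 0.143). Cd81 was lower (-1.38, adjusted p = 0.00713), a call lost without int 1 or int 2 (up to 0.0677) and without naive 3 and 4 (0.104). Bmp7, a secreted signalling protein, and Ikzf3, the Ikaros family factor Aiolos, were lower in high than in int cells (log2 -2.48 and -1.99, adjusted p = 1.39e-07 and 1.69e-08). Bmp7 had risen over naive cells by 1.69 ± 0.28 (adjusted p = 8.03e-05) and Ikzf3 by 0.80 ± 0.21 (adjusted p = 0.0171). The Ikzf3 call was lost without int 3, int 4 or naive 5 (up to 0.0867) and without naive 3 and 4 (0.0991). Th1 genes gave 7 higher and 1 lower of 26 in high against int, and the memory-linked S100 list 12 higher and 2 lower of 21. The shares over all genes were 1.4% higher and 1.59% lower.

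Spread within the int group was uneven between genes. The median SD over all genes was 0.197 among int and 0.243 among naive arrays. Alcam, Icos and Cxcr5 had SDs of 0.03, 0.04 and 0.14 among int arrays. Eomes, Ly6c2, Gzmk, Tigit, Il7r, Bhlhe40 and Cd22 varied more, with SDs of 1.14, 1.03, 0.93, 0.85, 1.29, 1.01 and 1.13. Int arrays 1 and 2 read 9.24 and 9.33 for Ly6c2 and 7.58 and 6.85 for Il7r, above arrays 3 and 4 (7.36 and 7.67, and 5.97 and 4.59). For Eomes, Gzmk, Tigit and Tnfsf4 arrays 3 and 4 were the higher ones. Cd22, a B cell inhibitory receptor, read 4.76, 5.52, 6.87 and 7.15 in int and 3.80 to 5.11 in naive cells, and was the 1 member of the B cell list called higher (log2 1.81 ± 0.36, adjusted p = 0.00107). The other B cell markers did not rise with it: Cd79a stood at 3.03 to 4.15, Cd79b at 2.83 to 3.22 and Ms4a1 at 2.44 to 2.81 on the int arrays.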

How the data were processed

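RNA of sorted CD4 T cells was amplified and hybridised to 43 microarrays in 9 groups. The deposited log2 values of the authors entered unchanged. Their log base was judged from their range (1.46 to 13.87), and no source used here gives the background correction or normalization. Of 41345 probe sets 23521 had 1 gene symbol in the platform annotation, 1814 several and 16010 none. Each gene was represented by its brightest single-symbol probe set (mean of the 43 arrays), giving 22180 genes, and 1082 of them had several. Group means were fitted to all 43 arrays with limma 3.58.1 (R 4.3.3; lmFit, eBayes with a variance trend), and p-values were adjusted over all genes by the Benjamini-Hochberg method, with 0.05 as threshold. The number of arrays limits the precision.

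Named were the 12 highest and 12 lowest called genes, up to 4 called members of a list, the 6 largest int minus none and high minus int differences each way among called genes, fixed genes of T cell biology and the sort and cell type markers. Comparisons, members and lists were chosen with earlier results of these data known. Tested on simulated data for int against naive with 22180 genes, the fit recovered 18% of 50 genes planted at a log2 change of 0.5, 86% at 1, 96% at 1.5 and 98% at 2. Alternatives covered scaling, array weights, the arrays fitted, a filter on dim genes, probe sets, a replicate block, a marker covariate and left-out arrays.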

Additional observations from a re-analysis of the deposited data

Results flagged for a closer look

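Among 246 sets of arrays examined (each named gene in the 4 int and in the 5 naive arrays), 13 had 1 array set apart from the others by Dixon's 95% criterion. Chance sets apart about 1 in 20, so the count of 13 is close to what chance gives. Among int arrays, replicate 4 was highest for Ccnb2 (3.98), Nt5e (7.89) and the neutrophil gene S100a9 (5.82) and lowest for Vim (6.78). Int replicate 2 was highest for Ccl5 (10.97) and lowest for Il10ra (7.74), and int replicate 3 lowest for Il2 (3.21). Among naive arrays, replicate 1 was lowest for Cd44 (4.29), Il2rb (7.43) and Irf8 (5.55), and replicate 5 lowest for Cd96 (9.41). Naive replicate 3 was highest for the B cell gene Ms4a1 (5.19) and for Foxp3 (6.42), beside its B and myeloid marker means of 5.25 and 4.90. Their part in the Foxp3 value was not tested.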

How the results depend on the processing

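The 698 calls between int and naive cells became 411 without naive replicates 3 and 4 and 302 with the B and myeloid marker mean as a covariate, and ranged from 496 to 815 on leaving out 1 array. Under that covariate Camp turned from lower to 0.10 higher, uncalled (adjusted p = 0.9995). Calls between int and none cells rose from 276 to 581 with array quality weights and ranged from 170 to 270 with 1 array left out. Between high and int cells 664 calls became 345 when only those groups were fitted. The cause was not tested, though fewer arrays entered the last fit. Other settings kept these counts within 1.5 times. The replicate block gave 680 calls between int and naive cells, 258 between int and none and 614 between high and int. Replicate numbers gave no sign of pairing: deviations of same-numbered arrays correlated at 0.054, -0.031, -0.000 and 0.100 between int and naive, at -0.101 to 0.002 between int and none and at 0.031 to 0.096 between int and high. Of 97 named calls 77 held whichever single array was left out and 80 without naive replicates 3 and 4. Calls lost numbered 3 after quantile normalization, 22 under the covariate and 20 with only both groups fitted.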
